A study of Rattus norvegicus with 32 samples.

Results

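The 8 genes described here control how pyruvate, the end product of glycolysis, enters mitochondrial oxidation. They are the pyruvate carrier genes Mpc1 and Mpc2, the pyruvate dehydrogenase (PDH) complex genes Pdha1, Pdhb, Dlat and Dld, and the PDH kinase genes Pdk2 and Pdk4. They were chosen by symbol, and all 8 were present among the 12901 genes of the deposited table and among the 11594 genes that passed a filter on low counts. Transcripts were counted in gastrocnemius, a mostly fast-twitch muscle of the calf, from male chow-fed rats 20 weeks old. The 32 libraries fell into 4 groups: UCP1 knockout rats after 2 weeks at 4 °C (KO_4C, n = 9), knockout rats at room temperature (KO_RT, n = 9), control rats after 2 weeks at 4 °C (control_4C, n = 7) and control rats at room temperature (control_RT, n = 7). UCP1 is the uncoupling protein with which brown fat makes heat. The strain and the knockout allele were not stated, and the labels call the control rats both control and wild type. The comparisons ask how the muscle responds to prolonged cold, and whether that differs without UCP1. Whether different animals were sampled at the 2 temperatures is not stated, so the p-values measure only the spread between these samples. The labels' titles and descriptions number the KO_RT samples differently, and each such library takes its table column's name here (KO8, for instance) with no replicate number.

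Pyruvate made in the cytosol crosses the inner mitochondrial membrane through a carrier built of MPC1 and MPC2, and the carrier needs both subunits. Inside, the PDH complex turns it into acetyl-CoA: the E1 enzyme (Pdha1 and Pdhb subunits) removes carbon dioxide with thiamine as cofactor, E2 (Dlat) passes the acetyl group to coenzyme A, and E3 (Dld) reoxidises the lipoate arm of E2. PDH kinases phosphorylate E1 and switch the complex off, PDH phosphatases switch it on, and in muscle Pdk4 is known for its induction in fasting, when muscle burns fat and spares glucose. Transcript counts do not measure the phosphorylation of the complex.

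Library totals ran from 7275508 to 25846976 counts, and no odd count occurred in the table. Levels are given as CPM, counts scaled to a common library size with TMM factors, each with the SD between libraries, and levels are compared between groups and not between genes. Over the libraries Pdk2 had 2 to 52 counts, Dlat 38 to 204, Pdk4 30 to 294 and Mpc2 58 to 992, while the other 4 genes had at least 590 in every library, so counting error weighed most on Pdk2. Fast-muscle markers were abundant in every library, with Ckm, the muscle creatine kinase, at 11680 to 24352 CPM. Ucp1 was not analysed here and thus gives no check of the genotype labels. The 4 libraries at the low end of the first principal component, which held 21.7% of the variance, were picked as a set. They were KO_RT libraries KO8 (-65.6) and KO10 (-52.0) and control_RT replicates 2 (-60.0) and 3 (-41.3). The next library, control_RT replicate 6, lay at -32.8, so no clear gap bounded the set. The set is referred to below as the 4 libraries that stood apart. An index was also defined after the data were seen, from 96 genes, with the 8 genes left out. These 96 genes were at least 2 log2 units lower in KO_RT library KO10 than in the median of the other KO_RT libraries. Their mean log2 CPM is called the low-transcript index below and was low in KO_RT library KO10 by construction. It averaged 4.79 ± 0.20 in KO_4C, 4.27 ± 1.06 in KO_RT, 4.86 ± 0.12 in control_4C and 3.32 ± 0.70 in control_RT (SD, n = 9, 9, 7 and 7), and control_4C and control_RT did not overlap on it.

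The region around the transcription start is shown for the 4 genes that passed the test in a cold comparison, from 250 bases before to 50 bases after the RefSeq start, 5′ to 3′ on the gene's strand. Coordinates are those of the build GRCr8, which differs from the Rnor_6.0 build of the counts. Capitals mark every match, on either strand, to 5 motifs searched: the ERR element TCAAGGTCA, the FOXO element GTAAACA, the E-box CACGTG, the CCAAT box CCAAT and the GC box GGGCGG.
Mpc2, chr13:80261006-80261305, plus strand: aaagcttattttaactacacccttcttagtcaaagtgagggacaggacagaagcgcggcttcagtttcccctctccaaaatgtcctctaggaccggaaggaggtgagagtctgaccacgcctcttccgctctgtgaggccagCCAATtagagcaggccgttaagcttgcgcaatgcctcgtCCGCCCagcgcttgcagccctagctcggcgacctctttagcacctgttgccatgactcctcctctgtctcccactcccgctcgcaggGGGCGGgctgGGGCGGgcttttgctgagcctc
Pdhb, chr15:19182539-19182838, plus strand: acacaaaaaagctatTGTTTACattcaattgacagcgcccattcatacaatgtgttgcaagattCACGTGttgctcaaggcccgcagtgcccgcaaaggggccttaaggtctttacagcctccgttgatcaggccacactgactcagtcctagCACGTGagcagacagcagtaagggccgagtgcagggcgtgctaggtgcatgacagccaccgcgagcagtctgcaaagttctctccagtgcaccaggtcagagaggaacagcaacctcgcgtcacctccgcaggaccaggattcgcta
Pdk4, chr4:34568280-34568579, minus strand: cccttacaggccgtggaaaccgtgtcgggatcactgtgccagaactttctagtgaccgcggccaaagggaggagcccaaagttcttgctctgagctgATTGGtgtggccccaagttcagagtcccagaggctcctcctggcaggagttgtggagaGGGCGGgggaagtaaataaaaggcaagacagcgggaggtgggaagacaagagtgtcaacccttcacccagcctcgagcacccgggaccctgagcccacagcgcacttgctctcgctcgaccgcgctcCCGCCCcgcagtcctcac
Pdk2, chr10:80483863-80484162, minus strand: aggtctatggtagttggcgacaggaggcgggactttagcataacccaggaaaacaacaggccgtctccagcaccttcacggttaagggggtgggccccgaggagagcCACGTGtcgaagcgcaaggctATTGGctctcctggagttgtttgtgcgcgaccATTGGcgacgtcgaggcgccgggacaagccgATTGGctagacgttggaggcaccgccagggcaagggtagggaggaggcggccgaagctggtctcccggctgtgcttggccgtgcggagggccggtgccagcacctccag
The Mpc2 window held a CCAAT box starting at -108, counted from the first transcribed base as 1, and GC boxes at -69, 19 and 29. The Pdhb window held a FOXO element at -235 and E-boxes at -186 and -97. The Pdk4 window held a CCAAT box at -153 and GC boxes at -95 and 33, and the Pdk2 window an E-box at -143 and CCAAT boxes at -122, -90 and -59. Of 33469 RefSeq promoter windows of this length, 3.78% held the FOXO element, 6.42% the E-box, 37.5% the CCAAT box and 33.1% the GC box. Over the 8 genes, 1, 2, 5 and 5 windows held these motifs. None of the 8 windows held the letters of the ERR element, which occurred in 0.433% of all windows. A match is a description of letters, and none of the matches overlapped a match to another motif.

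In control rats after cold, the carrier gene Mpc2 and the E1 gene Pdhb were higher and the kinase gene Pdk4 was lower. These were the 3 of the 8 genes past an adjusted p of 0.05, 2 higher and 1 lower, beside 20.7% of all 11594 tested genes (12.4% higher and 8.28% lower). Adjusted p-values are from the quasi-likelihood test of edgeR with Benjamini-Hochberg adjustment over all tested genes. In knockout rats 1 of the 8 genes passed, the kinase gene Pdk2, which was lower, beside 13.8% of all tested genes (7.49% higher and 6.28% lower). Averaged over both genotypes, Mpc2 and Pdhb were higher and Pdk2 was lower after cold. This is 3 of 8 genes beside 31.4% of all tested genes (17.7% higher and 13.7% lower). The median log2 fold change of the 8 genes was 0.25 in control rats and 0.10 in knockout rats, against 0.03 and 0.01 over all tested genes.

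**Figure D1:**
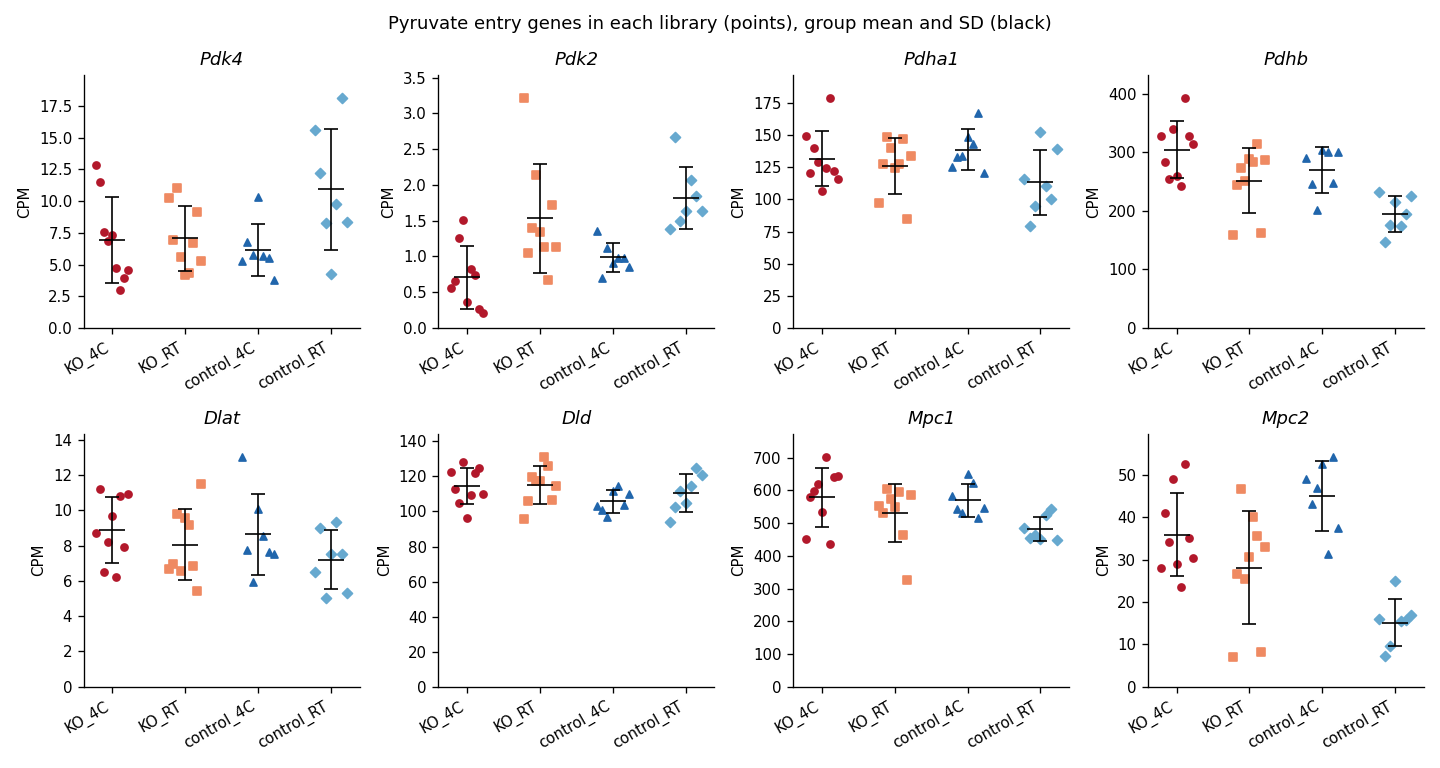
CPM (vertical axis, linear, from 0) of the 8 pyruvate entry genes in each of the 32 libraries by group; black bars are the group mean and SD (n = 9, 9, 7 and 7). The control_RT libraries have the lowest Mpc2 mean (15.2 CPM), all 7 of them below every control_4C library, and Pdk2 is lowest on average in KO_4C (0.710 CPM).

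Mpc2 (ENSRNOG00000003150), whose start region is the first printed above, had a lowest, median and highest level of 31.4, 47.0 and 54.4 CPM in control_4C, against 7.35, 15.8 and 24.9 CPM in control_RT. Every control_4C library lay above every control_RT library. The mean was 45.1 ± 8.26 CPM in control_4C and 15.2 ± 5.64 CPM in control_RT (SD, n = 7 each). The rise was 2.96-fold, or log2 1.56 ± 0.30 (SE), with an adjusted p = 0.000517. In knockout rats the lowest, median and highest levels were 23.7, 34.1 and 52.6 CPM in KO_4C, against 7.06, 30.7 and 46.8 CPM in KO_RT. These groups overlapped, and KO_RT libraries KO8 and KO10, at 8.32 and 7.06 CPM, lay far below the other KO_RT libraries. The difference was 1.27-fold and did not pass the test (log2 0.35 ± 0.26, adjusted p = 0.418). The difference between the genotypes' cold responses, the interaction, was log2 -1.22 ± 0.39 for Mpc2 (adjusted p = 0.169), the lowest p among the 8 genes in a comparison where 0.0259% of all genes were called.

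Mpc2 followed the low-transcript index closely. Mpc2 itself met the rule that picked the index genes and was left out only because it belongs to the genes described here. A high r, above all in KO_RT, was thus partly fixed by how the index was made. With group means removed, the Pearson r of Mpc2 log2 CPM with the index was 0.93 over the 32 libraries. It was 0.79 over the 28 libraries left without the 4 that stood apart. Both measures come from the same libraries and scaling. Within groups r was 0.90 in KO_4C, 0.98 in KO_RT, 0.56 in control_4C and 0.89 in control_RT. Without those 4 libraries the mean was 45.1 ± 8.26 CPM in control_4C (n = 7) and 17.8 ± 4.02 CPM in control_RT (n = 5), and the rise held (log2 1.33 ± 0.19, adjusted p = 1.68e-05). In knockout rats the means were then 35.9 ± 9.80 CPM in KO_4C (n = 9) and 34.0 ± 7.56 CPM in KO_RT (n = 7), a difference of log2 0.08 ± 0.15 (adjusted p = 0.824), and the interaction passed the test (log2 -1.25 ± 0.24, adjusted p = 0.00426), as it did without KO_RT library KO10 alone (-1.36 ± 0.33, adjusted p = 0.0317). Those 4 libraries, picked from these same data, held the lowest Mpc2 levels, and KO10 the lowest of all. Leaving the 4 out narrowed the KO_RT SD from 13.3 to 7.56 CPM. The interaction passing without them is therefore no independent support for a difference between genotypes. With the index as a covariate the difference in control rats was log2 0.26 ± 0.16 (adjusted p = 0.446). Since the index separated control_4C from control_RT, its part in the Mpc2 difference and that of cold cannot be told apart. In bulk muscle, fewer cells of a type and less RNA per cell cannot be told apart either.

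**Figure D2:**
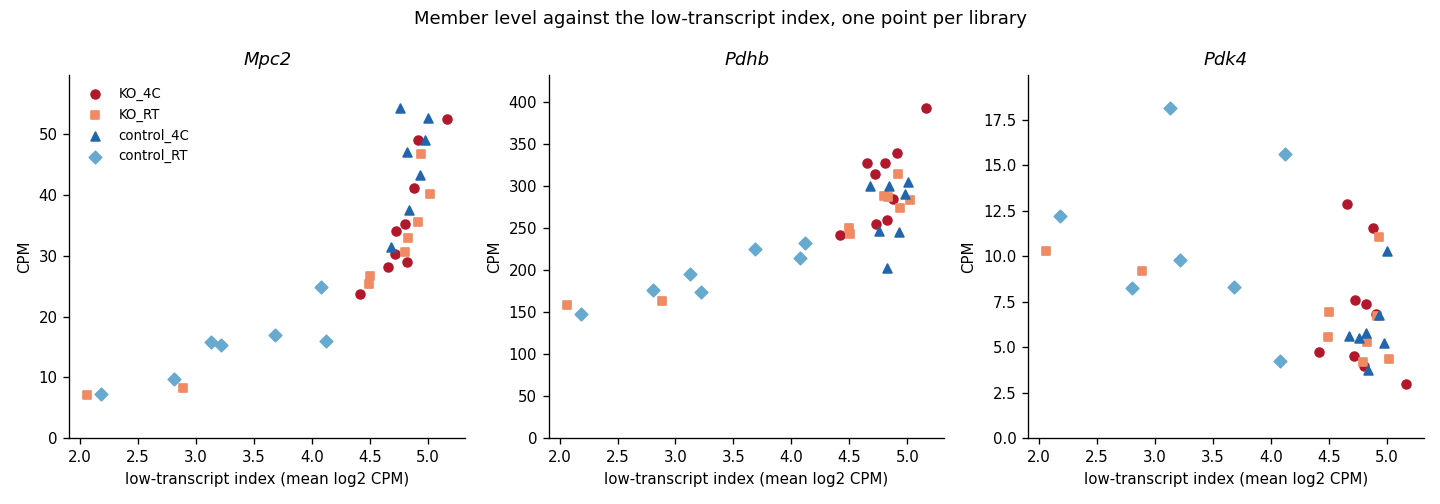
CPM of Mpc2, Pdhb and Pdk4 (vertical axes, linear, from 0) against the low-transcript index (mean log2 CPM of 96 genes), with 1 point per library. Mpc2 is lowest, and Pdhb among the 5 lowest, in the 4 libraries with an index under 3, which are KO_RT libraries KO8 and KO10 and control_RT replicates 2 and 3. Pdk4 stands at 8.24 to 12.2 CPM in those 4 and at 2.97 to 18.1 CPM in the others (r = -0.32 with group means removed, n = 32).

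Mpc1 (ENSRNOG00000012415), the partner subunit of the carrier, had a lowest, median and highest level of 515, 545 and 651 CPM in control_4C, against 449, 463 and 544 CPM in control_RT. In knockout rats these were 436, 599 and 703 CPM in KO_4C, against 325, 551 and 605 CPM in KO_RT. The groups overlapped in both genotypes, and KO_RT library KO8 gave the lowest value of all libraries. The differences were log2 0.24 ± 0.11 in control rats (adjusted p = 0.108) and 0.12 ± 0.10 in knockout rats (adjusted p = 0.437), and 0.18 ± 0.07 averaged over both (adjusted p = 0.0504). The average passed without KO_4C replicate 1, 5 or 7, KO_RT library KO16 or control_4C replicate 3 (adjusted p = 0.0331 to 0.0499), and the control difference without KO_RT library KO8 (adjusted p = 0.0472). Across libraries the carrier subunits varied together only weakly, with r = 0.28 for Mpc1 and Mpc2 with group means removed (n = 32). Mpc1 had r = 0.23 with the index (n = 32) and -0.09 without the 4 libraries that stood apart (n = 28).

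Pdhb (ENSRNOG00000007895), which encodes the beta subunit of E1, had a lowest, median and highest level of 202, 291 and 305 CPM in control_4C, against 148, 195 and 232 CPM in control_RT. Of the 7 control_4C libraries, 6 lay above every control_RT library. The mean was 270.2 ± 39.2 CPM in control_4C and 195 ± 30.8 CPM in control_RT (SD, n = 7 each), a 1.39-fold rise (log2 0.47 ± 0.14, adjusted p = 0.0119). In knockout rats the lowest, median and highest levels were 242, 315 and 393 CPM in KO_4C, against 158, 274 and 315 CPM in KO_RT. The groups overlapped, with 8 of 9 KO_4C libraries above the KO_RT mean, and the difference of log2 0.28 ± 0.12 did not pass the test (adjusted p = 0.121). Pdhb had r = 0.82 with the low-transcript index (n = 32) and 0.64 without the 4 libraries that stood apart (n = 28). Without them the rise in control rats was log2 0.37 ± 0.11 (adjusted p = 0.0185). It was 0.25 ± 0.11 with a surrogate variable (adjusted p = 0.115) and -0.04 ± 0.11 with the index as a covariate (adjusted p = 0.9), so here too cold and the index cannot be told apart.

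Pdha1 (ENSRNOG00000025383) encodes the alpha subunit of E1, which carries the sites the PDH kinases phosphorylate. Its lowest, median and highest levels were 121, 134 and 167 CPM in control_4C, against 79.6, 110.0 and 152 CPM in control_RT. In knockout rats they were 106, 124 and 179 CPM in KO_4C, against 84.6, 128 and 149 CPM in KO_RT. All 7 control_4C libraries lay above the control_RT mean, but only 1 above every control_RT library, and the groups of knockout rats overlapped throughout. The differences were log2 0.29 ± 0.13 in control rats (adjusted p = 0.101) and 0.07 ± 0.11 in knockout rats (adjusted p = 0.744), and without control_RT replicate 4 the control difference passed (0.36 ± 0.13, adjusted p = 0.0335), as did the average (0.21 ± 0.08, adjusted p = 0.0474). RefSeq lists a pseudogene of Pdha1, Pdha1l1, and how the authors' counting treated reads shared with it is not given.

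Dlat (ENSRNOG00000009994), the E2 acetyltransferase core, averaged 8.91 ± 1.87 CPM in KO_4C and 8.06 ± 1.99 CPM in KO_RT (SD, n = 9 each), and 8.64 ± 2.30 CPM in control_4C and 7.19 ± 1.68 CPM in control_RT (n = 7 each). All 4 groups overlapped, and the lowest library stood at 5.05 CPM. Its cold differences were log2 0.14 ± 0.16 in knockout rats (adjusted p = 0.616) and 0.26 ± 0.18 in control rats (adjusted p = 0.328). Dld (ENSRNOG00000006364), the E3 dehydrogenase that other 2-oxo acid complexes share, averaged 115 ± 10.5 CPM in KO_4C and 115 ± 10.8 CPM in KO_RT, and 106 ± 6.41 CPM in control_4C and 110.4 ± 10.8 CPM in control_RT. Its cold differences were log2 -0.01 ± 0.07 in knockout rats (adjusted p = 0.972) and -0.06 ± 0.08 in control rats (adjusted p = 0.624), the values nearest to 0 among the 8 genes in both comparisons. Across libraries the E1 genes moved together and with Mpc2: with group means removed r was 0.67 for Pdhb and Pdha1, 0.77 for Mpc2 and Pdhb and 0.76 for Mpc2 and Pdha1 (n = 32). These values share the index, with which Pdha1 had r = 0.71, Dld 0.39 and Dlat 0.30. Without the 4 libraries that stood apart, r with the index was 0.50 for Pdha1, 0.03 for Dld and 0.25 for Dlat (n = 28). The r between genes was not computed without those libraries.

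**Figure D3:**
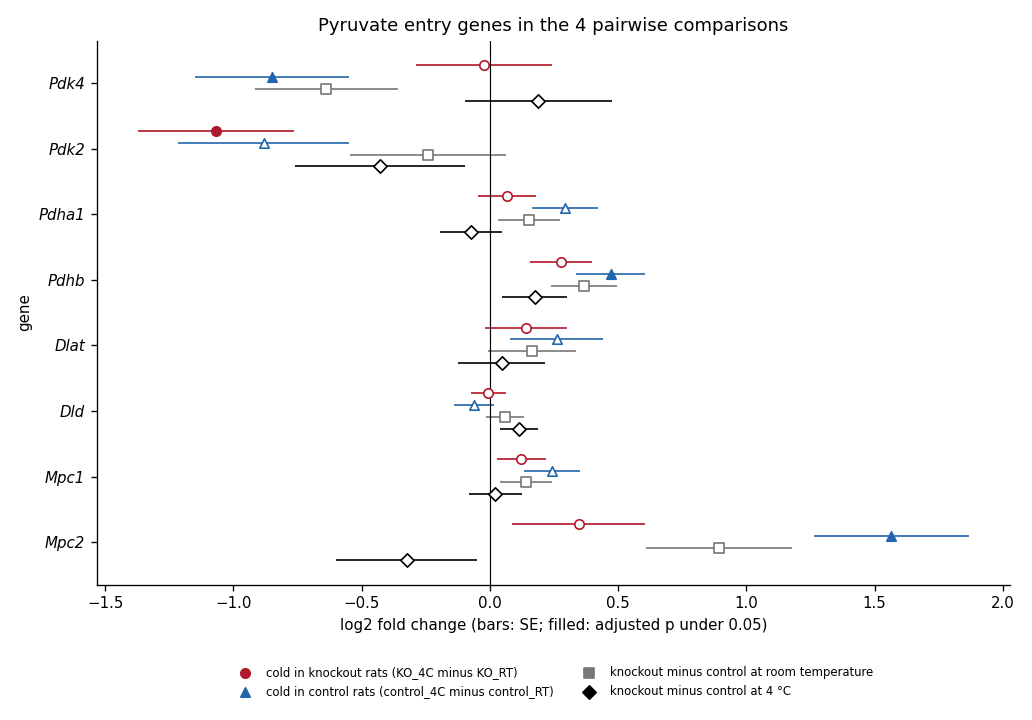
Log2 fold change (horizontal axis; bars are SE) of the 8 genes in the 4 pairwise comparisons of groups; filled symbols have an adjusted p under 0.05. The filled symbols are Mpc2 (1.56), Pdhb (0.47) and Pdk4 (-0.85) for cold in control rats and Pdk2 (-1.07) for cold in knockout rats; every knockout-against-control symbol is open.

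Pdk4 (ENSRNOG00000009565), the kinase gene known for its response to fasting, had a lowest, median and highest level of 3.75, 5.64 and 10.3 CPM in control_4C, against 4.27, 9.78 and 18.1 CPM in control_RT. All 7 control_4C libraries lay below the control_RT mean, but only 1 lay below every control_RT library. The mean was 6.14 ± 2.04 CPM in control_4C and 10.9 ± 4.75 CPM in control_RT (SD, n = 7 each), 1.80-fold lower after cold (log2 -0.85 ± 0.30, adjusted p = 0.0405). In knockout rats the lowest, median and highest levels were 2.97, 6.83 and 12.9 CPM in KO_4C, against 4.17, 6.73 and 11.1 CPM in KO_RT. The groups covered nearly the same range, and the difference was log2 -0.02 (95% interval -0.54 to 0.50, adjusted p = 0.967). The interaction for Pdk4 was log2 0.83 ± 0.40 (adjusted p = 0.378), so the responses of the genotypes were not shown to differ. The call in control rats was close to the threshold: it was lost without any 1 of 9 libraries (control_4C replicates 1, 2, 3, 5, 6 and 7 and control_RT replicates 1, 2 and 6), with log2 values between -0.88 and -0.69 and adjusted p-values of 0.0523 to 0.117. Without the 4 libraries that stood apart it was -0.90 ± 0.34 (adjusted p = 0.0642), with a surrogate variable -0.68 ± 0.33 (adjusted p = 0.181), and with the replicate number as a block -0.80 ± 0.32 (adjusted p = 0.0798). Averaged over both genotypes Pdk4 passed only without KO_4C replicate 1, control_4C replicate 4 or control_RT replicate 4 (log2 -0.53 to -0.52, adjusted p = 0.0337 to 0.0427).

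Pdk2 (ENSRNOG00000004172), a kinase gene expressed in many tissues, had a lowest, median and highest level of 0.206, 0.658 and 1.52 CPM in KO_4C, against 0.673, 1.35 and 3.22 CPM in KO_RT. All 9 KO_4C libraries lay below the KO_RT mean, and 5 lay below every KO_RT library. The mean was 0.710 ± 0.443 CPM in KO_4C and 1.53 ± 0.758 CPM in KO_RT (SD, n = 9 each), 2.10-fold lower after cold (log2 -1.07 ± 0.30, adjusted p = 0.0145). In control rats the lowest, median and highest levels were 0.704, 0.973 and 1.35 CPM in control_4C, against 1.38, 1.64 and 2.67 CPM in control_RT. Every control_4C library lay below every control_RT library, but only narrowly. The nearest were control_4C replicate 1 at 1.35 CPM (16 counts) and control_RT replicate 1 at 1.38 CPM (20 counts). How often groups separate in this way over all genes was not counted. The difference of log2 -0.88 ± 0.33 did not pass the test (adjusted p = 0.055). Averaged over both genotypes Pdk2 fell by 0.97 on the log2 scale (SE 0.23, adjusted p = 0.00112), and the interaction was -0.19 ± 0.45 (adjusted p = 0.904). The call in knockout rats was lost without KO_RT library KO10, the library highest in Pdk2 (log2 -0.85, adjusted p = 0.058), without the 4 libraries that stood apart (-0.79 ± 0.31, adjusted p = 0.104) and with a surrogate variable (-0.85 ± 0.31, adjusted p = 0.0759). The average passed without them (-0.80 ± 0.23, adjusted p = 0.011). With the low-transcript index as a covariate no call of Pdk2 was left, with log2 -0.78 ± 0.30 in knockout rats (adjusted p = 0.0841) and -0.51 ± 0.27 averaged (adjusted p = 0.25). The difference in control rats passed the test with DESeq2 (-0.90, adjusted p = 0.033), with the compared groups alone (adjusted p = 0.0198) and with counts divided by 2 (adjusted p = 0.0342). It also passed without any 1 of 7 libraries (KO_4C replicates 4, 8 and 9, KO_RT libraries KO10 and KO17, control_4C replicate 1 and control_RT replicate 1), with adjusted p-values of 0.0401 to 0.0499. Pdk2 had r = -0.46 with the low-transcript index (n = 32) and -0.22 without those 4 libraries (n = 28).

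Summed levels of marker genes also differed between the groups, and no test was made of them. The summed level of 11 slow-muscle markers, all of them in the table, averaged 22651 CPM in KO_4C (range 16097 to 29520) and 16339 CPM in KO_RT (11891 to 21600), and 23870 CPM in control_4C (17370 to 29372) and 15968 CPM in control_RT (11644 to 20167). The sum of 10 fast-muscle markers averaged 152167 CPM in KO_4C and 180950 CPM in KO_RT, and 150539 CPM in control_4C and 188824 CPM in control_RT. The sum of 9 adipocyte markers averaged 416 CPM in KO_4C and 297 CPM in KO_RT, and 382 CPM in control_4C and 212 CPM in control_RT. In KO_RT the median was 260 CPM, and library KO8 stood highest at 655 CPM. The adipocyte sums of control_4C (309 to 477 CPM) and control_RT (194 to 231 CPM) did not overlap. The sum of 8 macrophage markers averaged 172 CPM in KO_4C (range 130.1 to 238) and 108 CPM in KO_RT (90.1 to 121), which did not overlap, and 193 CPM in control_4C and 133 CPM in control_RT, which did. Smooth-muscle markers (5 of 5 in the table) summed to 354 CPM in KO_4C and 276 CPM in KO_RT, and to 377 CPM in control_4C and 258 CPM in control_RT. Erythroid markers (4 of 6) summed to 801 CPM in KO_4C and 424 CPM in KO_RT, and to 956 CPM in control_4C, with 1 library at 3468 CPM, and 396 CPM in control_RT. Endothelial markers (7 of 8) summed to 292 CPM in KO_4C and 227 CPM in KO_RT, and to 248 CPM in control_4C and 235 CPM in control_RT. Fibroblast markers (5 of 6) were lower in KO_4C, at 836 CPM against 1157 CPM in KO_RT, and stood at 949 CPM in control_4C and 882 CPM in control_RT. Intestinal epithelium markers (7 of 8) summed to 231 CPM in KO_4C and 291 CPM in KO_RT, and to 470.1 CPM in control_4C and 382 CPM in control_RT. The control sums were spread widely, from 219 to 931 CPM in control_4C (median 332) and 215 to 737 CPM in control_RT (median 354). The part of these shifts in the values of the 8 genes was not tested.

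Between genotypes, none of the 8 genes passed the test. At room temperature the count was 0 of 8 beside 2.61% of all tested genes (2.35% higher and 0.259% lower). At 4 °C it was 0 of 8 beside 0.0518% (0.0345% higher and 0.0173% lower), and averaged over both temperatures 0 of 8 beside 4.27% (1.42% higher and 2.85% lower). At an unadjusted p under 0.05 there were 3 of the 8 genes at room temperature (Mpc2, Pdhb and Pdk4), 0 at 4 °C and 1 in the average (Pdhb), beside 17.2%, 14.6% and 19.6% of all tested genes. DESeq2 called 1, 0 and 0 of the 8 genes, beside 4.98%, 3.91% and 7.68% of all genes to which it gave an adjusted p. The interaction of cold and genotype also gave 0 calls beside 0.0259% of all genes (0.00863% higher and 0.0173% lower), with 2 of the 8 genes at an unadjusted p under 0.05 (Mpc2 and Pdk4) beside 12.9% of all genes, and 0 calls by DESeq2 beside 0.966%. The room-temperature medians of the 8 genes and of all tested genes were log2 0.15 and 0.00.

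At room temperature the lowest, median and highest Mpc2 levels were 7.06, 30.7 and 46.8 CPM in KO_RT, against 7.35, 15.8 and 24.9 CPM in control_RT. Of the 9 KO_RT libraries, 7 lay above every control_RT library, while KO8 and KO10, at 8.32 and 7.06 CPM, lay near or below the lowest control_RT library. The difference was 1.86-fold (log2 0.89 ± 0.29, adjusted p = 0.084). It passed the test without the 4 libraries that stood apart (log2 0.92 ± 0.18, adjusted p = 0.00171), with a surrogate variable (0.64 ± 0.18, adjusted p = 0.0374) and with DESeq2 (0.88, adjusted p = 0.0433). Those 4 libraries held the lowest Mpc2 levels, so the pass without them is no independent support. Leaving out 1 library, the difference passed without KO8 (adjusted p = 0.0184), KO10 (adjusted p = 0.00959) or replicate 4 of control_RT (adjusted p = 0.0458). With the low-transcript index as a covariate it was -0.10. The index without those 4 libraries averaged 4.79 ± 0.21 in KO_RT (n = 7) and 3.65 ± 0.47 in control_RT (n = 5), so genotype and index cannot be told apart there.

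Pdhb showed the same order at room temperature, with 252 ± 55.7 CPM in KO_RT (n = 9) and 195 ± 30.8 CPM in control_RT (n = 7). The 7 KO_RT libraries other than KO8 and KO10 lay above every control_RT library. The difference was log2 0.37 ± 0.13 (adjusted p = 0.114) and passed without the 4 libraries that stood apart (0.40 ± 0.11, adjusted p = 0.0248) or without KO8 or KO10 alone (0.41, adjusted p = 0.0245 each). Those 4 libraries were among the lowest in Pdhb. Averaged over both temperatures Pdhb passed without those 4 (0.28 ± 0.07, adjusted p = 0.016), without KO8 (adjusted p = 0.0297), without KO10 (adjusted p = 0.0252) and with a surrogate variable (0.24 ± 0.07, adjusted p = 0.0293). With the low-transcript index as a covariate Pdhb was at log2 0.02 ± 0.09 at room temperature (adjusted p = 0.949) and 0.11 ± 0.06 averaged (adjusted p = 0.375), so for Pdhb too genotype and index cannot be told apart at room temperature. Pdk4 was at 7.06 ± 2.55 CPM in KO_RT and 10.9 ± 4.75 CPM in control_RT, a difference of log2 -0.64 ± 0.28 (adjusted p = 0.229). At 4 °C the differences between genotypes ran from log2 -0.43 ± 0.33 for Pdk2 to 0.19 ± 0.29 for Pdk4, against -0.64 ± 0.28 for Pdk4 to 0.89 ± 0.29 for Mpc2 at room temperature. Pdk2 was at -0.24 ± 0.30 at room temperature. Mpc2 at 4 °C averaged 35.9 ± 9.80 CPM in KO_4C and 45.1 ± 8.26 CPM in control_4C, with 4 of 9 KO_4C libraries below every control_4C library (log2 -0.32 ± 0.27, adjusted p = 0.646). The comparisons share groups with each other, so their values stand side by side and no overlap between them is given.

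A list of 6 further genes of the complex and its regulators held the PDH phosphatases, which reverse the action of the kinases, and all 6 were tested. In control rats 1 of 6 rose, Pdp1, and in knockout rats 2 of 6 rose, Pdp1 and Pdp2, while 0 fell in either, beside the 20.7% and 13.8% of all tested genes called in control and knockout rats. Pdp1, the calcium-stimulated catalytic subunit, had a lowest, median and highest level of 41.4, 60.8 and 80.6 CPM in KO_4C, against 23.8, 47.3 and 59.6 CPM in KO_RT. In control rats these were 51.7, 57.9 and 69.5 CPM in control_4C, against 30.6, 42.5 and 46.1 CPM in control_RT, and the control groups did not overlap. The rise was log2 0.43 ± 0.12 in knockout rats (adjusted p = 0.0137) and 0.53 ± 0.14 in control rats (adjusted p = 0.00517). With a surrogate variable these were 0.28 ± 0.10 (adjusted p = 0.0657) and 0.31 ± 0.11 (adjusted p = 0.0694). Pdp2, the other catalytic subunit, averaged 7.00 ± 2.51 CPM in KO_4C and 3.66 ± 1.26 CPM in KO_RT (n = 9 each), a rise of log2 0.93 ± 0.21 (adjusted p = 0.00248). In control rats Pdp2 averaged 3.83 ± 1.05 CPM in control_4C and 2.80 ± 0.638 CPM in control_RT (log2 0.45 ± 0.25, adjusted p = 0.206). The kinase genes Pdk1 and Pdk3, the phosphatase regulatory subunit gene Pdpr and the E3-binding protein gene Pdhx did not pass in either genotype.

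**Figure D4:**
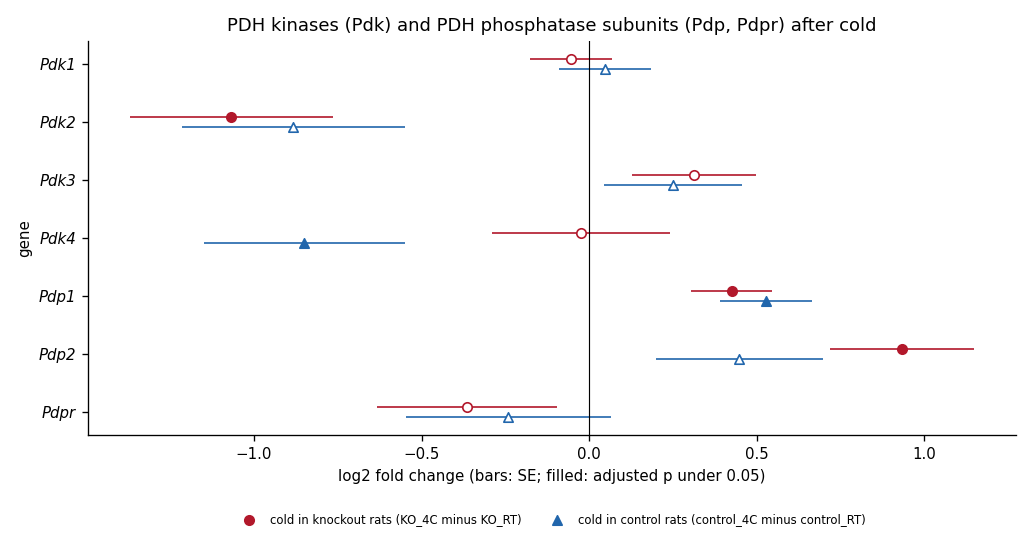
Log2 fold change after cold (horizontal axis; bars are SE) of the PDH kinase genes and the PDH phosphatase subunit genes in knockout and control rats; filled symbols have an adjusted p under 0.05. Pdp1 lies right of 0 in both genotypes (0.43 in knockout and 0.53 in control rats), Pdp2 is filled in knockout rats (0.93), and Pdk1 lies near 0 in both (-0.05 and 0.05).

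Over 55 tested genes of 7 lists of neighbouring steps, 12 rose and 7 fell after cold in knockout rats, and 11 rose and 6 fell in control rats. Of all tested genes, 7.49% were higher and 6.28% lower in knockout rats, and 12.4% higher and 8.28% lower in control rats, and the count of each list below stands beside these shares. The lactate and pyruvate list (13 of 14 genes tested) had 1 gene higher and 4 lower in knockout rats, and 1 higher and 3 lower in control rats. Ldhb, the lactate dehydrogenase subunit of oxidative tissue, rose by log2 0.79 ± 0.14 in knockout rats (adjusted p = 0.000123) and 0.74 ± 0.16 in control rats (adjusted p = 0.000973). Slc16a3, which encodes the lactate exporter MCT4 of glycolytic muscle, fell by 0.62 (SE 0.09, adjusted p = 4.06e-06) and by 0.61 (SE 0.10, adjusted p = 5.85e-05). Me1, the cytosolic malic enzyme that makes pyruvate from malate, fell by 0.42 (SE 0.10, adjusted p = 0.00526) and by 0.56 (SE 0.12, adjusted p = 0.000871) in the same order of genotypes. With the low-transcript index as a covariate, 17 of the 55 genes passed in knockout rats and 2 in control rats. Of all tested genes, 1348 passed in knockout rats and 368 in control rats in that fit. Without the covariate these counts were 1596 and 2399, so the drop in control rats was not limited to the genes of these lists.

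The cofactor list, for the lipoate and thiamine on which the complex depends, had 6 of 7 genes tested, with 1 higher and 0 lower in knockout rats and 1 higher and 1 lower in control rats. Lias, the lipoate synthase, averaged 44.3 ± 5.71 CPM in control_4C and 64.6 ± 5.61 CPM in control_RT (n = 7 each) and fell by log2 0.54 (SE 0.10, adjusted p = 0.000226). In knockout rats Lias averaged 51.3 ± 7.93 CPM in KO_4C and 57.2 ± 5.83 CPM in KO_RT (log2 -0.15, adjusted p = 0.257). Slc19a2, a thiamine transporter, was at 1.32 ± 0.204 CPM in control_4C and 0.272 ± 0.207 CPM in control_RT (log2 2.23 ± 0.51, adjusted p = 0.00192), with at least 1 library at 0 in both room-temperature groups, and at 1.56 ± 0.609 CPM in KO_4C and 0.762 ± 0.717 CPM in KO_RT (log2 0.98, adjusted p = 0.10). Lipt2, which transfers the lipoate precursor, rose by 0.49 ± 0.15 in knockout rats (adjusted p = 0.0286) and not past the threshold without the 4 libraries that stood apart (0.33 ± 0.14, adjusted p = 0.13).

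Of the other complexes that use Dld (7 of 10 genes tested), 0 rose and 1 fell in knockout rats, and 1 rose and 1 fell in control rats. Bckdk, the kinase that switches off branched-chain amino acid oxidation, averaged 266 ± 26.7 CPM in KO_4C and 345 ± 42.7 CPM in KO_RT, and 255 ± 30.8 CPM in control_4C and 368 ± 38.7 CPM in control_RT. It fell by log2 0.38 in knockout rats (SE 0.08, adjusted p = 0.00122) and by 0.53 in control rats (SE 0.09, adjusted p = 0.00015). Dbt, the E2 of the branched-chain complex, averaged 32.9 ± 6.74 CPM in KO_4C and 27.7 ± 7.20 CPM in KO_RT (log2 0.24, adjusted p = 0.273). It averaged 29.4 ± 5.51 CPM in control_4C and 16.7 ± 2.55 CPM in control_RT, a rise of log2 0.82 ± 0.16 (adjusted p = 0.000507). In the first steps of the citric acid cycle (4 of 5 genes tested), 1 rose and 1 fell in each genotype. Cs, citrate synthase, which takes up the acetyl-CoA made by PDH, rose by 0.43 ± 0.08 in knockout rats (adjusted p = 0.000132) and by 0.25 ± 0.09 in control rats (adjusted p = 0.0382, and 0.2 without the 4 libraries that stood apart). Idh3g, a regulatory subunit of isocitrate dehydrogenase, fell by 0.50 in control rats (SE 0.10, adjusted p = 0.000747), and Idh3a, the catalytic subunit, fell by 0.22 in knockout rats (SE 0.07, adjusted p = 0.0415, and 0.143 without those libraries).

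Among regulators reported upstream of Pdk4 (8 of 11 genes tested), 1 rose and 1 fell in knockout rats, and 2 rose and 0 fell in control rats. Klf15, a transcription factor of fasting and glucocorticoid responses, averaged 32.7 ± 6.93 CPM in KO_4C and 18.3 ± 6.19 CPM in KO_RT (n = 9 each), and 25.8 ± 6.14 CPM in control_4C and 10.4 ± 3.39 CPM in control_RT (n = 7 each). It rose by log2 0.84 ± 0.19 in knockout rats (adjusted p = 0.00294) and by 1.30 ± 0.22 in control rats (adjusted p = 0.000173), while Pdk4 did not rise in either. Of the PPAR and fasting genes other than Pdk4 (11 of 13 tested), 6 rose and 0 fell in knockout rats, and 4 rose and 0 fell in control rats, with median log2 fold changes of 0.56 and 0.29. Averaged over both genotypes 6 rose and 1 fell, beside 17.7% of all tested genes higher and 13.7% lower. The gene that fell was Angptl4 (log2 -1.12). Its mean was 10.4 CPM in KO_4C and 20.8 CPM in KO_RT, and 11.2 CPM in control_4C and 25.9 CPM in control_RT. Fabp3, a fatty acid carrier of oxidative muscle, averaged 906 ± 168 CPM in KO_4C and 514 ± 114 CPM in KO_RT (log2 0.82 ± 0.13, adjusted p = 3.01e-05), and 731 ± 113 CPM in control_4C and 479 ± 109 CPM in control_RT (0.61 ± 0.15, adjusted p = 0.00281). Acadl, an acyl-CoA dehydrogenase of fat oxidation, rose by 0.65 ± 0.13 in knockout rats (adjusted p = 0.000508) and 0.60 ± 0.15 in control rats (adjusted p = 0.00288). Rxra and Esrra passed in 1 genotype each, Rxra lower in knockout rats (log2 -1.59 ± 0.54, adjusted p = 0.0427) and Esrra higher in control rats (0.36 ± 0.12, adjusted p = 0.0261), and neither passed without the 4 libraries that stood apart (adjusted p = 0.382 and 0.0883).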

How the data were processed

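RNA of gastrocnemius muscle was prepared with Trizol and made into Lexogen QuantSeq libraries, which read the 3′ end of transcripts, from 500 ng each with 50 bp forward reads, per the labels' protocols. The authors deposited raw read counts for each Ensembl gene. They also deposited a table of normalised signal, each count divided by 1 size factor per library (0.523 to 2.06), which was used here only for gene symbols (11693 of 12901 genes). Per the submitters' processing notes, R 3.4.3, DESeq2 1.18.1 and the build Rnor_6.0 were used, while aligner and counter are not named in these sources. Every deposited count was even, so each read may have been entered in duplicate, and counts divided by 2 were an alternative.

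Counts were analysed with edgeR 4.0.16 and limma 3.58.1 in R 4.3.3: filterByExpr (minimum count 10, 11594 genes tested, 1307 not tested), TMM factors, a robust quasi-likelihood fit with 1 mean per group over all 32 libraries and no covariate, and Benjamini-Hochberg adjustment over all genes tested, with a threshold of 0.05. The fit was also run on counts simulated with its own spread and no deviating libraries. That run cannot show how the fit handles the 4 libraries that stood apart. The SE is the absolute log2 fold change over the square root of F, and intervals span 1.96 SE. Contrasts were cold in each genotype and averaged, knockout against control at each temperature and averaged, and their interaction. Log2 CPM used a prior count of 2. No pair of libraries within a group was a duplicate (smallest chi-square per degree of freedom 11.6), and pairs across groups were not compared. Counting error was largest for Pdk2.

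The members and the lists were chosen with earlier results of these data known. Named genes are all 8 members, and from each list up to 3 tested genes of smallest p among those past the threshold after cold in either genotype or averaged; the text gives a selection of these. Pearson r with a member was computed on log2 CPM with group means removed. The KO_RT columns entered as libraries of that group with no replicate number. Promoters are RefSeq windows of build GRCr8, matched by symbol for all 8 genes. Alternatives were RLE factors, no filter, DESeq2 1.42.0, a surrogate variable (sva 3.50.0), the compared groups alone, a replicate block, counts divided by 2, an adjusted p of 0.01, leaving out the 4 libraries that stood apart or each library in turn, and, chosen after seeing the data, the low-transcript index as a covariate. The 4 libraries were also picked from these same data. Ucp1 was not analysed here.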

Additional observations from a re-analysis of the deposited data

How the results depend on the processing

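The next 2 paragraphs give the larger moves of the counts over all genes and over the 55 other pathway genes. Counts of the 8 genes past the threshold, given after their main value, moved as follows. After cold in control rats (3), 1 passed with a surrogate variable, 1 at an adjusted p of 0.01 and 0 with the low-transcript index as a covariate. In the same comparison 4 passed with DESeq2, 4 with the compared groups alone and 4 with counts divided by 2. There 2 passed with the replicate block and 2 without the 4 libraries that stood apart. After cold in knockout rats (1), 0 passed with a surrogate variable, 0 without the 4 libraries that stood apart, 0 at 0.01 and 0 with the index. Averaged over both genotypes (3), 2 passed with a surrogate variable and 0 with the index. Between genotypes at room temperature (0), DESeq2 called 1, the surrogate variable 1 and the fit without those 4 libraries 2. In the genotype average (0) the surrogate variable gave 1 and those 4 left out 1, and in the interaction (0) those 4 left out gave 1. Leaving out single libraries gave 2 to 4 after cold in control rats, 0 to 1 in knockout rats, 3 to 5 averaged, 0 to 2 between genotypes at room temperature, 0 to 0 at 4 °C, 0 to 1 averaged and 0 to 1 in the interaction. The cause of these moves was not tested, except that the index covariate removes a measure that separates the control groups.

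Over all genes, cold in control rats (2399) gave 1394 calls with a surrogate variable, 1209 at 0.01 and 368 with the index. The cold average (3643) gave 2088, 2221 and 1298 in the same order. Cold in knockout rats (1596) gave 1333 with a surrogate variable, 1330 without the 4 libraries, 799 at 0.01 and 1348 with the index. Knockout against control at room temperature (303) gave 577 with DESeq2, 447 with a surrogate variable and 0 with the compared groups alone. It gave 708 without the 4 libraries, 21 at 0.01 and 1 with the index. At 4 °C (6) the counts were 121 with RLE factors (11 higher and 110 lower, against 4 and 2), 3 without a filter, 436 with DESeq2, 10 with a surrogate variable, 0 with the compared groups, 0 with the block, 81 with counts divided by 2, 0 at 0.01 and 261 with the index. The genotype average (495) gave 804 with DESeq2, 722 with a surrogate variable, 1025 without the 4 libraries, 1 at 0.01 and 83 with the index. The interaction (3) gave 1 without a filter, 112 with DESeq2, 62 with a surrogate variable, 288 without the 4 libraries, 0 at 0.01 and 1 with the index. Leaving out single libraries gave 1806 to 2827 and 1331 to 1709 calls for cold in control and knockout rats, 3279 to 3778 for their average, 80 to 792 and 0 to 556 between genotypes at room temperature and at 4 °C, 1 to 988 for the genotype average and 0 to 226 for the interaction.

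Of the 55 other pathway genes, cold in control rats (17) gave 11 with a surrogate variable and 2 with the index, the cold average (28) gave 15 with the index, and leaving out single libraries gave 15 to 21, 16 to 23 and 26 to 31 for cold in control rats, in knockout rats and averaged. Between genotypes, the room-temperature count of these genes (2) was 0 with the compared groups alone, 0 at 0.01, 0 with the index and 4 without the 4 libraries, the 4 °C count (0) was 1 with DESeq2 and 1 with the index, and the averaged count (3) was 5 with DESeq2, 6 with a surrogate variable, 6 without the 4 libraries, 0 at 0.01 and 0 with the index. Leaving out single libraries gave 1 to 5, 0 to 1 and 0 to 6 of them.

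Some log2 fold changes turned sign. With the index, cold in control rats gave -0.10 for Pdha1, -0.039 for Pdhb and -0.011 for Esrra, cold in knockout rats 0.11 for Pdk4 and -0.058 for Pdha1, and the cold average -0.079 for Pdha1 and 0.0096 for Pc, pyruvate carboxylase. Between genotypes the index gave, at room temperature, 0.093 for Pdk2, -0.10 for Pdha1, -0.022 for Dld and -0.10 for Mpc2, averaged -0.079 for Pdha1 and -0.19 for Mpc2, and in the interaction 0.042 for Pdha1, 0.17 for Pdhb and 0.052 for Dlat. Cold in knockout rats gave 0.11 for Pdk4 and -0.075 for Pdha1 with a surrogate variable, and 0.13 and -0.040 without the 4 libraries, which also gave 0.021 for the Pdk2 interaction. Leaving out single libraries, values that turned sign ranged, for cold in knockout rats, from -0.20 to 0.068 for Pdk4, -0.0090 to 0.10 for Pdha1 and -0.045 to 0.023 for Dld. Between genotypes at 4 °C they ranged from -0.0012 to 0.34 for Pdk4, -0.026 to 0.16 for Dlat and -0.026 to 0.058 for Mpc1, averaged from -0.017 to 0.070 for Pdha1, and in the interaction from -0.39 to 0.035 for Pdk2 and -0.20 to 0.011 for Dlat.

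A replicate block could be fitted for cold in control rats and for knockout against control at 4 °C, since the KO_RT columns carry no replicate number. Replicate numbers were not shown to pair samples: same-numbered deviations had r of -0.22 to 0.19 for cold in control rats (over 0.1 in 1 of 7 pairs, own number best in 0) and -0.073 to 0.22 between genotypes at 4 °C (3 of 7, own number best in 3). With the block, 2 of the 8 genes passed in control rats, as Pdk4 did not (-0.80 ± 0.32, adjusted p = 0.0798), and 0 at 4 °C, where Mpc1 was at -0.048; the other calls of the 8 genes kept their side of the threshold. Pdk2, with as few as 2 counts in a library, allowed only large differences to be called.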

Other observations

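Genes whose level varied most like Pdk4 across the 32 libraries, with group means removed and among 6946 genes of at least 5 CPM, were Pfdn6 (Pearson r = 0.64), Stat2 (0.64), P4ha1 (0.62), Clpb (0.61) and Znhit6 (0.60). Pfdn6 encodes a prefoldin subunit, Stat2 a transcription factor of interferon signalling and P4ha1 a prolyl hydroxylase of collagen. The mean of the standardised levels of Pdha1, Pdhb, Dlat and Dld was most like Tmem126a (0.89), Atp5pf (0.87), Rpl9 (0.87), Ndufa4 (0.87) and Mettl14 (0.87). Atp5pf encodes a subunit of ATP synthase, Ndufa4 a respiratory chain subunit and Rpl9 a ribosomal protein. These values are a description over libraries that share depth and the low-transcript index. They are the 5 highest of 6946 in each case, so high values were bound to be picked, and none was tested.

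Few of the 55 other pathway genes were called between genotypes. In KO_RT against control_RT, 2 of 55 were higher, Dbt and Klf15, beside 2.35% of all tested genes. Averaged over both temperatures, 3 of 55 were higher in knockout rats, Pdp2, Dbt and Klf15, beside 1.42% of all tested genes. The lists were chosen with earlier results of these data known, so these counts are only a description. Klf15 averaged 18.3 ± 6.19 CPM in KO_RT (n = 9) and 10.4 ± 3.39 CPM in control_RT (n = 7), and Dbt 27.7 ± 7.20 CPM in KO_RT and 16.7 ± 2.55 CPM in control_RT. The room-temperature difference was log2 0.73 ± 0.15 for Dbt (adjusted p = 0.0107) and 0.81 ± 0.21 for Klf15 (adjusted p = 0.0347, quasi-likelihood test of edgeR). Neither passed with the compared groups alone (adjusted p = 0.0911 and 0.142) or with the low-transcript index as a covariate (0.198 and 0.518). Klf15 did not pass at room temperature without any 1 of 9 libraries (KO_RT libraries KO9, KO11, KO13, KO15, KO16 and KO17 and control_RT replicates 2, 3 and 6, adjusted p = 0.0551 to 0.103). The averaged difference was 0.61 ± 0.16 for Pdp2, 0.45 ± 0.11 for Dbt and 0.57 ± 0.15 for Klf15 (adjusted p = 0.0298, 0.0221 and 0.0272), and none of the 3 passed with the index (adjusted p = 0.0893, 0.0812 and 0.09), without control_4C replicate 3 (0.0707, 0.0591 and 0.0626) or without control_4C replicate 6 (0.0525, 0.0525 and 0.0593). The average of Pdp2 also missed the threshold without KO_RT library KO9 or KO16 or control_RT replicate 2 or 4 (adjusted p = 0.0557 to 0.0617).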
